A study of Homo sapiens with 8 samples.

Results

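The segment of human chromosome 6 between 26.2 and 28.96 Mb (hg19) holds the large cluster of nuclear tRNA genes next to the histone genes. Reads of 6 miCLIP libraries were examined here at the single bases where they start within that segment. A position was kept when its reads summed to at least 3 over the 6 libraries, when it lay outside exons of protein-coding genes on its strand, and when it lay outside 8 copies of the initiator tRNA-Met gene. The positions were thus chosen by their summed read counts, so the presence of reads at these positions is a description and not a result. Of 619 positions with at least 3 reads in the segment, 121 lay in protein-coding exons and 51 in initiator copies, which left 447 positions with 22144 reads. The whole series holds 127854 positions, of which 58422 have at least 3 reads. The label of a tRNA cluster was checked against the sequence: 376 of the 447 positions lay inside 93 tRNA genes recognised by their cloverleaf, 20 within 30 nt upstream and 11 within 30 nt downstream of such a gene, and 40 elsewhere, 5 of these in tRNA sequence that the search had not taken.

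The libraries come from HEK293, a long-established line of human embryonic kidney origin. Cells were transfected with a myc-tagged construct of the RNA methyltransferase NSun3 or NSun6 and harvested after 24 h, and RNA bound to the tagged enzyme was pulled down with an antibody to the tag. For NSun3 the methods describe a mutant for miCLIP, of the kind that stays joined to the cytosine it attacks, and whether the NSun6 construct carried such a mutation is not stated in the labels or methods. Every library thus came from cells with an overexpressed enzyme beside their own, and no library without an enzyme or with an unrelated one was part of the comparison. Each enzyme has 3 libraries that the labels number as replicates, and nothing in the labels says whether these were separate cultures, so a test measures the spread between these libraries only. The remaining 2 of the 8 samples gave bisulfite reads of polyadenylated RNA from the same line.

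A tRNA gene is read by RNA polymerase III from promoter elements inside the gene, and the transcript carries a short leader and trailer that are removed before CCA is added at the end. Some tRNA genes also hold an intron just after the anticodon. The folded tRNA has an acceptor stem, a D arm, an anticodon arm, a variable region and a T arm, and its bases are numbered by that fold, with the wobble base of the anticodon at 34 and the acceptor stem closing near base 72. NSun6 is known to methylate the cytosine at base 72 of tRNA-Thr and tRNA-Cys, and NSun3 the wobble cytosine of the mitochondrial tRNA-Met. NSun2, a relative, methylates the wobble cytosine of intron-containing tRNA-Leu(CAA) and cytosines in and just behind the variable region of other tRNAs. In miCLIP, reverse transcription halts at the base that carries the enzyme remnant, so the first base of a read lies next to it. Reverse transcription also halts at bases whose methyl group blocks pairing, and tRNAs carry such bases.

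The genes that received most reads are shown first, numbered by their rank in reads among the 93. The capital marks the base at which the most reads of the gene start, and sequences are the DNA of the tRNA strand in hg19. The tRNA-Leu(CAA) genes 1, 2, 12 and 15 are shown because their exons are nearly the same while their introns are not, the tRNA-Thr genes 4 to 6 because they carry starts in the anticodon loop, and genes 3 and 9 because their starts lie just behind the anticodon.
tRNA-Leu(CAA) gene 1, chr6:28864000-28864105, minus strand: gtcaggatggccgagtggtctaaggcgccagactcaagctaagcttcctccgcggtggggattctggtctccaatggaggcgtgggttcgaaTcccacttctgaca
tRNA-Leu(CAA) gene 2, chr6:28908830-28908934, plus strand: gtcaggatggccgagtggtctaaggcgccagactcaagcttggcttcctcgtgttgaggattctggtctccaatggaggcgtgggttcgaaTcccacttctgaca
tRNA-Leu(CAA) gene 12, chr6:27573417-27573524, minus strand: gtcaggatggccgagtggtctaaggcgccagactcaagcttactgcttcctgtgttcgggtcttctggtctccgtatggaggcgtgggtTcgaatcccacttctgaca
tRNA-Leu(CAA) gene 15, chr6:27570348-27570454, minus strand: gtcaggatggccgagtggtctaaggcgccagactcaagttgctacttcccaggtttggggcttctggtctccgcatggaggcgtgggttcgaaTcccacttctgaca
tRNA-Arg(TCG) gene 3, chr6:26323046-26323118, plus strand: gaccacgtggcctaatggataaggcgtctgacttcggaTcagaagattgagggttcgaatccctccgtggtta
tRNA-Thr(CGT) gene 4, chr6:28456770-28456843, minus strand: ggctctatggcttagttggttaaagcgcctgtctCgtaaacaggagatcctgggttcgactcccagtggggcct
tRNA-Thr(TGT) gene 5, chr6:28442329-28442402, minus strand: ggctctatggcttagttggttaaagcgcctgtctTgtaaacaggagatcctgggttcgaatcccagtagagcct
tRNA-Thr(AGT) gene 6, chr6:28693795-28693868, plus strand: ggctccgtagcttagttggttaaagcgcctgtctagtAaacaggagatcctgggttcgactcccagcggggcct
tRNA-Lys(TTT) gene 9, chr6:27302769-27302841, minus strand: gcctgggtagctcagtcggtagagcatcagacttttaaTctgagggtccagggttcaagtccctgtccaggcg

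The exons of tRNA-Leu(CAA) genes 1 and 2 are identical over 83 nt, and their introns are 23 and 22 nt long, from base 39 to base 61 and from base 39 to base 60. The introns of genes 12 and 15 are 24 and 23 nt long, and their exons differ from each other at 1 of 84 bases. Among tRNA-Thr genes 4 to 7, pairs differed at 4 to 8 of 74 bases. The starts printed above lie at base 60, in the T loop, for Leu genes 1, 2 and 15, at base 55, also in the T loop, for Leu gene 12, at base 34 for Thr genes 4 and 5, at base 37 for Thr gene 6 and at base 39 for Arg gene 3 and Lys gene 9.

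The libraries differ in depth, and this bears on every value below. The NSun3 libraries hold 138921, 53024 and 47352 reads and the NSun6 libraries 323935, 467586 and 305392 reads, so that a single read is worth 7.20, 18.9 and 21.1 RPM (reads scaled to a common library size) in NSun3 and 3.09, 2.14 and 3.27 RPM in NSun6. NSun6 supplied 82.1% of all reads and 94.0% of the reads at the 447 positions. As a check of the labels, NSUN3 exons had 32, 19 and 0 reads in the NSun3 libraries and 0, 0 and 8 in the NSun6 libraries, and exons of NSUN6 had 0 in every NSun3 library and 323, 428 and 323 in NSun6, so transcripts of the transfected enzyme were seen in every library but NSun3 replicate 3. Intervals and limits below cover counting error only.

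The positions took 0.759%, 0.0585% and 0.536% of the reads in NSun3 replicates 1, 2 and 3 and 2.22%, 1.70% and 1.85% in the NSun6 replicates. The means were 0.451% ± 0.358 in NSun3 and 1.93% ± 0.269 in NSun6 (SD, n = 3 each), and every NSun6 library lay above every NSun3 library (two-sided exact permutation test, p = 0.1, the smallest value that 3 against 3 allows). The test is not independent of the choice of positions, since 349 of the 447 had reads of NSun6 only. With a limit of 1 read in place of 3 the means were 0.465% and 1.96%. As a share of the nuclear reads outside initiator copies, however, the means were 1.24% and 2.11% and the groups overlapped (exact permutation test, p = 0.3). NSun3 replicate 2 contributed only 31 reads at 13 positions, and NSun3 replicate 3 contributed 254 reads at 17 positions. NSun3 replicate 1 contributed 1054 reads at 82 positions, and the NSun6 replicates 7199, 7941 and 5665 reads at 234, 302 and 274 positions. Of the 447 positions, 422 had a read in NSun6, 98 had one in NSun3 and 73 had reads of both enzymes. All 3 NSun6 libraries shared 130 positions, whereas 13 positions were seen in at least 2 NSun3 libraries and 1 in all 3. The last, chr6:27247283 on the plus strand, had 1, 1 and 2 NSun3 reads and no NSun6 read. It lies outside the tRNA genes, at the start of a run of A, so no tRNA position was seen in all 3 NSun3 libraries. Reads were concentrated: 33 positions held more than 100 reads each, and the 10 leading positions of a library held 58.7% to 62.5% of its reads in NSun6 and 50.6%, 90.3% and 94.1% in NSun3 replicates 1, 2 and 3. At the limit itself, 89 positions had exactly 3 reads, 8 of them with an NSun3 read, and just outside it 133 positions had 2 reads, 10 of them with an NSun3 read.

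Many human tRNA genes are near-identical copies, and a read was kept only where it had a single best place. The 136 tRNA genes of the segment, initiator copies apart, comprise 10384 bases, and for 5719 of them (55.1%) a read that starts there and is 30 nt long or shorter occurs once in the genome. Reads were found at 624 of these placeable bases, and none was found at the 4665 bases that need 31 nt or more. The change fell between 30 nt, where 22 of 149 bases had a read, and 31 nt, where 0 of 145 did. At 11 genes no base was placeable, and 104 of the other 125 had a read. A gene without reads is therefore not shown to be without signal. Of the 93 tRNA genes described here, 64 have a sequence found once among tRNA genes, and these hold 95.4% of the reads in tRNA genes, while the other 29 share their sequence with at least 1 other gene, in sets of up to 11 copies, and were told apart by flanking bases only.

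**Figure D1:**
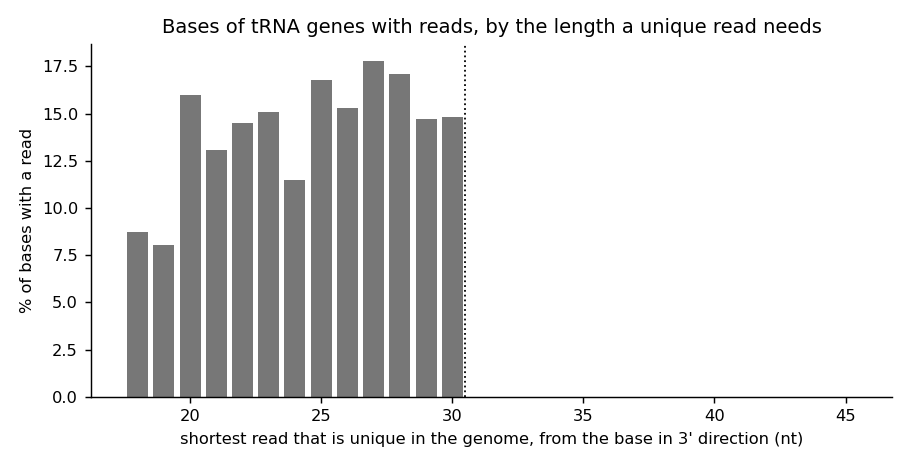
Share of bases of the 136 tRNA genes that have at least 1 read (vertical axis, %), by the length a read from that base needs to be unique in the genome (horizontal axis, nt). Between 8.06% and 17.8% of bases had a read at lengths of 18 to 30 nt, and none at lengths right of the dotted line.

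Leucine and threonine tRNAs led the set. The 4 tRNA-Leu(CAA) genes held 7935 reads, 36.8% of all reads in tRNA genes, and the 7 tRNA-Thr genes held 5682 reads, 26.4%. Alanine tRNAs followed with 16 genes and 12.3%, arginine with 4 genes and 10.8%, lysine with 5 genes and 3.10% and serine with 16 genes and 2.24%. In NSun6 the leading shares were steady from library to library, with tRNA-Leu(CAA) at 37.7%, 36.4% and 36.7% and tRNA-Thr at 26.8%, 29.5% and 26.1% of the tRNA reads. In NSun3 it was not: tRNA-Leu(CAA) took 38.6%, 3.45% and 20.2%, and tRNA-Thr took 5.22%, 0% and 0%. In NSun3 replicate 3 serine (28.4%), leucine (20.2%), glutamate (19.3%) and glutamine (17.9%) together took most tRNA reads, from 8 of the 11 genes read there.

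**Figure D2:**
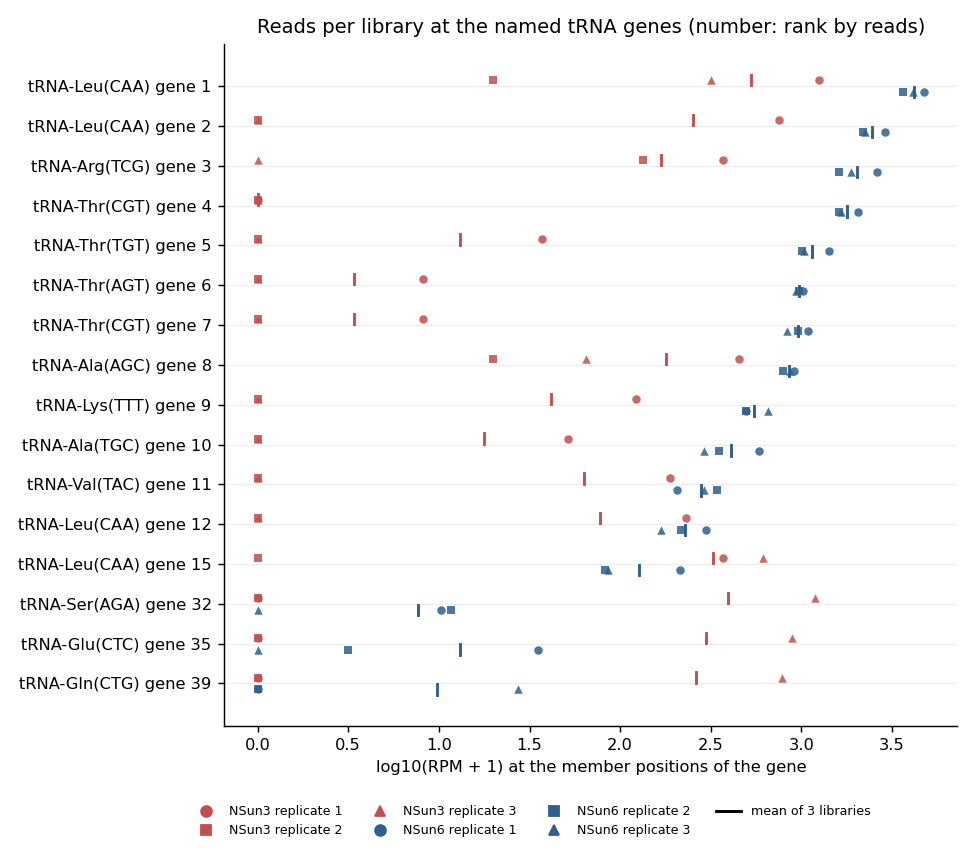
Reads per library at 16 tRNA genes, as log10(RPM + 1) on the horizontal axis, with 1 gene per line numbered by its rank in reads. Points are libraries and ticks the means of 3. The NSun6 libraries sit close together at the top genes, while at genes 32, 35 and 39 the high value is NSun3 replicate 3 alone.

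At tRNA-Leu(CAA) gene 1 the libraries gave 1253, 18.9 and 317 RPM in NSun3 and 4757, 3619 and 4145 RPM in NSun6, or 529 ± 644 against 4174 ± 570 RPM (mean ± SD, n = 3). The groups did not overlap, but the NSun3 libraries spread over a wide range. Tests were run on counts rescaled by TMM, whose factors for the NSun3 libraries ran from 0.276 to 1.90, so a fitted difference can be much smaller than the ratio of the RPM means. On that scale the log2 difference, NSun3 minus NSun6, was −1.0 (SE 1.52, edgeR adjusted p = 0.549), but it was −3.72 with RLE scaling (adjusted p = 0.00235) and −4.81 without NSun3 replicate 1 (adjusted p = 0.000302). Of the reads of this gene, 91.1% started at a single base, chr6:28864013 on the minus strand, base 60 of the T loop: 47, 0 and 11 reads in NSun3 and 1460, 1554 and 1198 in NSun6. That position was lower in NSun3 (log2 difference −4.34, SE 1.11, edgeR adjusted p = 0.00384), and it was the leading position of every NSun6 library, with 19.6% to 21.1% of the reads.

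tRNA-Leu(CAA) gene 2, with the same exons, gave 756, 0 and 0 RPM in NSun3 and 2911, 2177 and 2250 RPM in NSun6. Here NSun3 replicate 1 alone had reads, below each NSun6 library (log2 difference −0.99, SE 2.00, edgeR adjusted p = 0.652, and −3.85 with adjusted p = 0.00976 under RLE scaling). Without NSun3 replicate 1 no NSun3 read of the gene is left, and it was called lower (edgeR adjusted p = 5.10e-05). Base 60 took 67.1% of the reads, at chr6:28908921 on the plus strand, with 34, 0 and 0 reads in NSun3 and 625, 696 and 493 in NSun6 (log2 difference −4.09, SE 1.28, edgeR adjusted p = 0.0121). This call was lost without NSun3 replicate 2 (edgeR adjusted p = 0.122), without NSun6 replicate 1 (0.0723), without NSun6 replicate 3 (0.0731) and with DESeq2 (0.0679). A further 558 reads, all from NSun6 (236, 205 and 117), started upstream of it, at base 55, where gene 1 had 27 reads. Starts at the same tRNA base were thus placed unequally on genes whose mature tRNA is the same. Reads from these bases of the 2 genes differ only in trailer bases. The first 3 trailer bases differ from CCA at 2 bases in gene 1 and at 1 in gene 2, and the alignment allowed 1 mismatch. Whether the reads came from the gene they were placed on was not tested.

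The other tRNA-Leu(CAA) genes were less used. Gene 12 gave 230, 0 and 0 RPM in NSun3 and 296, 216 and 167 RPM in NSun6, with overlapping groups, and 64.6% of its reads started at base 55. Its log2 difference was 0.71 (edgeR adjusted p = 0.693), and without NSun3 replicate 1, which leaves no NSun3 read, it was called lower (adjusted p = 0.00104). Gene 15 gave 367, 0 and 612 RPM in NSun3 and 213, 81.3 and 85.1 RPM in NSun6, with overlapping groups and a log2 difference of 2.62 (SE 1.40, edgeR adjusted p = 0.117). The difference was 2.86 without NSun3 replicate 2 (adjusted p = 0.0116), 0.61 with RLE scaling (adjusted p = 0.440) and 1.05 without NSun3 replicate 1 (adjusted p = 0.269). Its base 60, chr6:27570361 on the minus strand, took 48, 0 and 21 NSun3 reads and 29, 23 and 14 NSun6 reads (log2 difference 2.06, SE 0.97, edgeR adjusted p = 0.0684), and the difference was 2.24 without mtDNA reads (adjusted p = 0.0246), 0.11 with RLE scaling (adjusted p = 0.901) and −0.29 without NSun3 replicate 1 (adjusted p = 0.777). With TMM scaling, the filter and all libraries, none of the 4 tRNA-Leu(CAA) genes was called different between the enzymes, while without the filter genes 1 and 2 were called lower in NSun3 (log2 differences −2.80 and −2.84, edgeR adjusted p = 2.48e-05 and 3.29e-06).

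The anticodon of tRNA-Leu(CAA) was read in a way that differed between libraries. NSun3 replicate 1 had 51 reads that start exactly at the wobble cytosine of gene 2, chr6:28908864, and 72 that start at the base 36 adenosine of gene 1, chr6:28864069, while the other NSun3 libraries had 0 at both. At the same bases NSun6 had 0, 0 and 0 reads and 0, 5 and 0 reads. A read of 18 nt from these starts runs 14 and 16 nt into the intron, which the mature tRNA does not hold. In all, 19 positions in 4 genes, 3 of tRNA-Leu(CAA) and 1 of tRNA-Ile(TAT), hold intron bases within the first 18 nt, with 141, 0 and 0 reads in NSun3 and 59, 62 and 18 in NSun6. That is 15%, 0% and 0% of the NSun3 and 0.840%, 0.793% and 0.325% of the NSun6 tRNA reads.

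Most tRNA-Thr genes were nearly free of NSun3 reads. Gene 4, tRNA-Thr(CGT), had 0 reads in each NSun3 library and 669, 751 and 507 in NSun6, or 2065, 1606 and 1660 RPM, at least 37.7-fold higher than the mean value of 3 reads in the NSun3 libraries (edgeR adjusted p = 0.00130). Gene 5, tRNA-Thr(TGT), gave 36, 0 and 0 RPM in NSun3 and 1417, 1007 and 1028 RPM in NSun6 (log2 difference −4.53, SE 1.41, edgeR adjusted p = 0.0195, and 0.0646 with the replicate number as a block). Neither group overlapped the other at these genes. Gene 6, tRNA-Thr(AGT), gave 7.20, 0 and 0 RPM in NSun3 and 1019, 969 and 930 RPM in NSun6 (log2 difference −6.77, SE 1.00, edgeR adjusted p = 0.00193). Gene 7, tRNA-Thr(CGT), gave the same 7.20, 0 and 0 RPM in NSun3 and 1090, 962 and 832 RPM in NSun6 (log2 difference −6.76, SE 1.01, edgeR adjusted p = 0.00196). A single NSun3 read stood behind each of the last values. With 1 NSun3 read or none, genes 4, 6 and 7 passed the filter on low counts through NSun6, the group in which they are high. Of all 1750 genes tested, 83.1% were called lower in NSun3, so such a call does not by itself set these genes apart. The RPM values count all reads of a library, mitochondrial and initiator reads included. The exception was gene 18, tRNA-Thr(AGT) at 27130050, which held 42 of the 49 NSun3 reads in tRNA-Thr. It gave 302, 0 and 0 RPM in NSun3 and 86.4, 173 and 91.7 RPM in NSun6, with overlapping groups (log2 difference 1.89, SE 1.71, edgeR adjusted p = 0.324). All 42 reads were those of NSun3 replicate 1 at a single base, base 49, where NSun6 had 0 reads, while 52.5% of the reads of the gene, all from NSun6, started at base 11. Gene 18 was named after its values were seen.

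In tRNA-Thr most reads started in the anticodon arm, which took 88.8% of the 5682 reads, 62.0% in the loop and 24.0% in the 3′ side of the stem. The wobble base 34 took 2775 reads in 4 Thr genes, 49.8% ± 6.41 of the NSun6 reads in tRNA-Thr (SD, n = 3) and 96.3% of all reads at base 34 in the segment. At gene 4 this base, the cytosine chr6:28456809 on the minus strand, had 0 NSun3 reads and 451, 475 and 388 NSun6 reads, at least 26-fold higher in NSun6 (edgeR adjusted p = 0.000149). At gene 7, also a cytosine, chr6:28616023 had 1, 0 and 0 reads in NSun3 and 287, 264 and 166 in NSun6 (log2 difference −7.21, SE 0.87, edgeR adjusted p = 0.000149). At gene 5 the wobble base is a thymine in the gene, and chr6:28442368 still had 298, 243 and 178 NSun6 reads against 1, 0 and 0 in NSun3 (log2 difference −7.24, SE 0.89, edgeR adjusted p = 0.000153). These positions, with 1 NSun3 read or none, also passed the filter through NSun6, and 67.5% of all 1955 positions tested were called lower in NSun3. Starts at base 34 were thus found with a cytosine and with a thymine there, and in these genes base 32, 2 nt before it, is a cytosine. Gene 6 also has a cytosine at base 32 but had only 23 reads at base 34. It spread its starts over bases 37 to 42 instead, with 242 reads at base 37 and 174 at base 42. Gene 7 also had 294 reads at base 11 of the D arm, 57, 161 and 76 in the NSun6 libraries.

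The end of the acceptor stem, where NSun6 is known to act on tRNA-Thr, gave no reads inside the genes. Bases 69 to 73 of the 9 tRNA-Thr genes of the segment comprise 45 bases, all 45 placeable, and 0 reads started there in any library. A start 2 nt behind base 72 would lie past these bases. Within 3 nt past the gene ends there was 1 kept position, chr6:28693870 behind the tRNA-Thr(AGT) gene at 28693795. It lies 2 nt past the gene end and had 0, 2 and 1 NSun6 reads and 0 NSun3 reads. A mature tRNA holds too few bases downstream of base 72 for a read of 18 nt, so a halt at that base could be seen only on a precursor with a long trailer. The cloverleaf search found no tRNA-Cys gene in the segment.

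**Figure D3:**
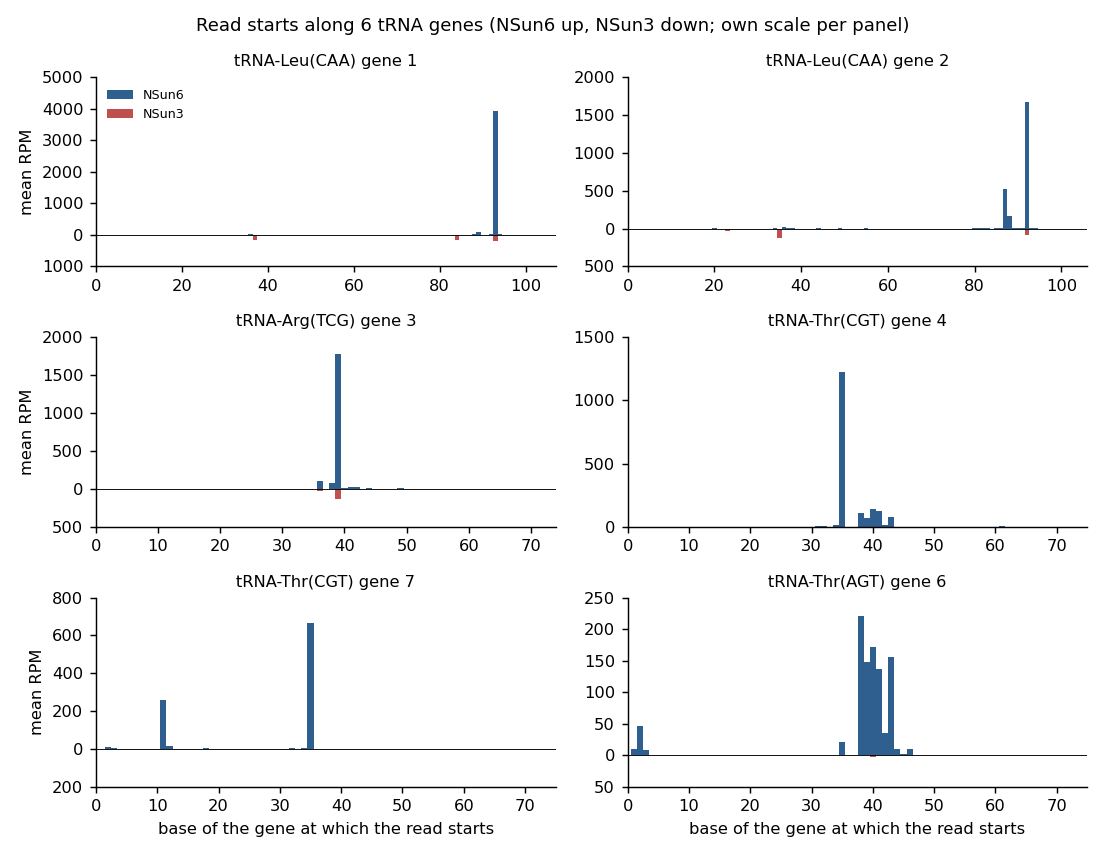
Mean RPM of read starts (vertical axis, n = 3 libraries, NSun6 upward and NSun3 downward, scales differ between panels) along 6 tRNA genes, by base of the gene (horizontal axis). tRNA-Leu(CAA) genes 1 and 2 peak near their end in the T loop, tRNA-Arg(TCG) gene 3 behind the anticodon, and tRNA-Thr genes 4 and 7 at the wobble base, while tRNA-Thr gene 6 spreads its starts.

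Genes 3, 8, 9 and 10 had their starts at base 39, the first base of the stem behind the anticodon loop. tRNA-Arg(TCG) gene 3 gave 367, 132 and 0 RPM in NSun3 and 2618, 1604 and 1889 RPM in NSun6 (log2 difference −1.67, SE 1.52, edgeR adjusted p = 0.326), and 87.0% of its reads started at base 39. That base, chr6:26323084 on the plus strand, had 39, 7 and 0 NSun3 reads and 731, 649 and 516 NSun6 reads and was called lower in NSun3 (log2 difference −3.58, SE 1.03, edgeR adjusted p = 0.00761). This call was lost without NSun3 replicate 2 (edgeR adjusted p = 0.136), without NSun6 replicate 1 (0.0516) and with DESeq2 (0.0613). The groups did not overlap, and this position led NSun3 replicate 2, although with 7 reads. tRNA-Lys(TTT) gene 9 gave 122, 0 and 0 RPM in NSun3 and 494, 496 and 655 RPM in NSun6 (log2 difference −1.53, SE 1.37, edgeR adjusted p = 0.319), with 89.0% of reads at base 39. tRNA-Ala(AGC) gene 8 gave 453, 18.9 and 63.4 RPM in NSun3 and 914, 793 and 864 RPM in NSun6 (log2 difference −0.23, SE 1.42, edgeR adjusted p = 0.885), with 45.8% at base 39. At another tRNA-Ala(AGC) gene, at 28763741, the base 39 position chr6:28763775 on the minus strand had 4, 0 and 27 NSun3 reads and 18, 22 and 5 NSun6 reads, with overlapping groups (log2 difference 2.05, SE 1.14, edgeR adjusted p = 0.116, and 0.05 with RLE scaling). tRNA-Ala(TGC) gene 10 gave 50.4, 0 and 0 RPM in NSun3 and 580, 349 and 291 RPM in NSun6 (log2 difference −2.61, SE 1.33, edgeR adjusted p = 0.101), with 68.9% at base 39. In genes 3, 8, 9 and 10 every NSun3 library lay below every NSun6 library, yet none was called with TMM scaling, the filter on low counts and all libraries. All 4 were called with RLE scaling (log2 differences −2.81 to −4.66, edgeR adjusted p = 0.00224 at most), with TMM but no filter (adjusted p = 0.000222 at most) and without NSun3 replicate 1 (adjusted p = 0.00103 at most).

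tRNA-Val(TAC) gene 11 had its leading start near its 5′ end. It gave 187, 0 and 0 RPM in NSun3 and 204, 340 and 288 RPM in NSun6 (log2 difference −0.01, SE 1.53, edgeR adjusted p = 0.995, and −2.47 with adjusted p = 0.0108 under RLE scaling), it was called lower without NSun3 replicate 1, its only NSun3 library with reads (adjusted p = 0.000775), and 44.2% of its reads started at base 2, close to the 5′ end. A further 60 NSun6 reads started at base 22 and 46 at base 11. Of the 93 genes, 1 other had its leading start at base 2, a tRNA-Lys(TTT) gene at 27559593, with 85.7% of its 28 reads.

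A few genes were high in NSun3 replicate 3 only. tRNA-Ser(AGA) gene 32 gave 0, 0 and 1183 RPM in NSun3 and 9.26, 10.7 and 0 RPM in NSun6, tRNA-Glu(CTC) gene 35 gave 0, 0 and 887 against 34, 2.14 and 0, and tRNA-Gln(CTG) gene 39 gave 0, 0 and 781 against 0, 0 and 26.2. These values are 56, 42 and 37 reads of that library, nearly all at a single base, base 51 in tRNA-Ser, base 50 in tRNA-Glu and base 60 in tRNA-Gln. At base 50 of tRNA-Glu, chr6:28950024 on the plus strand, NSun6 had 0 reads in each library, so the NSun3 mean was at least 34.8-fold above the mean value of 3 NSun6 reads, but it rests on 1 library. None of the 3 genes was tested, because the filter on low counts removed them, and the serine and glutamate genes have 6 and 7 identical copies in the genome, themselves included.

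Over the 93 tRNA genes, 28 passed the filter on low counts, and 10 of these were lower in NSun3 and 0 higher (edgeR adjusted p under 0.05), and the count was again 0 higher at an unadjusted p under 0.05. Among all 1750 tRNA and annotated genes tested, 83.1% were lower in NSun3 and 88.2% differed in either direction, and a difference between these shares was not tested. The median log2 difference was −1.33 over the 28 genes and −7.34 over all genes tested. The 10 genes comprise 5 tRNA-Thr genes, at 27694473, 28693795, 28456770, 28615984 and 28442329, and 1 gene each of tRNA-Ala(AGC), tRNA-Arg(CCG), tRNA-Gln(TTG), tRNA-Ile(AAT) and tRNA-Met(CAT). The scaling moved this count, since with RLE in place of TMM, which shifted the median of all genes to −7.67, 22 of the 28 genes were called lower (78.6%, against 95.3% of all genes in either direction). Without NSun3 replicate 1, 30 of 43 genes were lower and 1 higher (72.1%, against 79.3% of all genes), and without NSun3 replicate 2 it was 10 and 3 of 43 (30.2%, against 67.0%). With DESeq2 19 of the 93 genes were lower and 1 higher (21.5%, against 19.1% of all), and without a filter 35 and 6 of 93 (44.1%, against 26.8%). Counting calls in either direction, the share among these genes was thus below that of all genes in each edgeR fit with the filter. It was above it in the edgeR fit without a filter and with DESeq2, whose own filter was left at its default.

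By position, 44 of the 447 passed the filter, and 36 (81.8%) were lower in NSun3 and 0 higher, where 67.5% of all 1955 positions tested were lower and 86.4% differed in either direction. Their median log2 difference was −6.90, and that of all positions tested −7.09. At an unadjusted p under 0.05 the counts were the same 36 and 0, and without NSun3 replicate 1 they were 57 and 0 of 64 (89.1%, against 89.8% of all positions). With DESeq2 34 of the 447 were lower and 1 higher (7.83%, against 1.52% of all), and without a filter 58 and 20 (17.4%, against 3.74%), all shares here being calls in either direction. All 44 positions that passed had reads in each NSun6 library and 0 of them in each NSun3 library, so positions seen in NSun3 alone were removed, and the lack of calls higher in NSun3 says little about them. Likewise all 28 genes that passed had reads in each NSun6 library and 2 of them in each NSun3 library. Without regard to a test, every NSun3 library lay below every NSun6 library at 38 of the 93 genes, against 44.0% of 11937 genes with at least 3 reads, and at 108 of the 447 positions, against 12.6% of 58422 positions with at least 3 reads. For genes, this counted all reads inside the gene, also those outside the 447 positions. The reverse held at 0 genes, against 1.40% of all such genes, and at 1 position, against 1.46% of all such positions. That position, chr6:27247283, lies outside the tRNA genes and had 1, 1 and 2 NSun3 reads.

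Read starts favoured few of the canonical tRNA bases. Base 60 received 7366 reads in 58 genes, 35% ± 1.46 of the tRNA reads in NSun6 and 24.8% ± 7.95 in NSun3 (SD, n = 3). The 4 tRNA-Leu(CAA) genes held 85% of these reads, and tRNA-Met(CAT), with 2 genes and 202 reads, came next. In NSun3 replicates 1, 2 and 3 the tRNA-Leu(CAA) genes held 132 of 185, 0 of 6 and 32 of 74 reads at base 60. Base 39 received 4392 reads in 25 genes, 21% ± 0.791 in NSun6 and 17.9% ± 14.6 in NSun3, and base 34 received 2883 reads in 9 genes, 13.9% ± 1.11 in NSun6 and 1.92% ± 3.32 in NSun3. Base 55 followed with 1051 reads, 73.5% of them in tRNA-Leu(CAA). Base 11 received 445 reads in 5 genes, all from NSun6.

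Each of bases 11, 28, 34, 39 and 60 lies 2 nt behind a base at which human tRNAs are known to carry methyl groups, namely 9, 26, 32, 37 and 58. Starts 2 nt behind those 5 bases comprised 100 positions with 15229 reads, 72.7% ± 1.70 of the tRNA reads in NSun6 and 44.6% ± 11.5 in NSun3 (SD, n = 3, two-sided exact permutation test, p = 0.1, the smallest possible), on 5.58% of the placeable bases. These 5 bases and the distance of 2 nt were chosen after the profile was seen, so the share and its test only describe that profile. The same holds for the counts at other distances and for the letters given below, since lower counts beside chosen peaks follow from the choice. Base 55, with 1051 reads, lies 2 nt behind none of them. Starts 1 nt and 3 nt behind the bases known to carry methyl groups were fewer in each case. There were 52 and 33 reads next to base 60, 55 and 96 next to base 34 and 538 and 471 next to base 39. Base 11, with 445 reads, had 0 and 29 next to it, and base 28, with 143, had 26 and 8. Both bases thus had fewer reads than the neighbours of base 39. The letter 2 nt before the start was A in all 58 genes at base 60, where the search itself asked for A, C in all 9 genes at base 34 and G in all 5 genes at base 11. How often these letters stand there in genes without such starts was not computed. At base 39 it was A in 20 genes with 2391 reads, G in 3 genes with 1949 reads and, in the genomic sequence of 2 genes with an intron before that base, C with 52 reads. Whether a methylated base at these sites stopped reverse transcription was not tested.

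**Figure D4:**
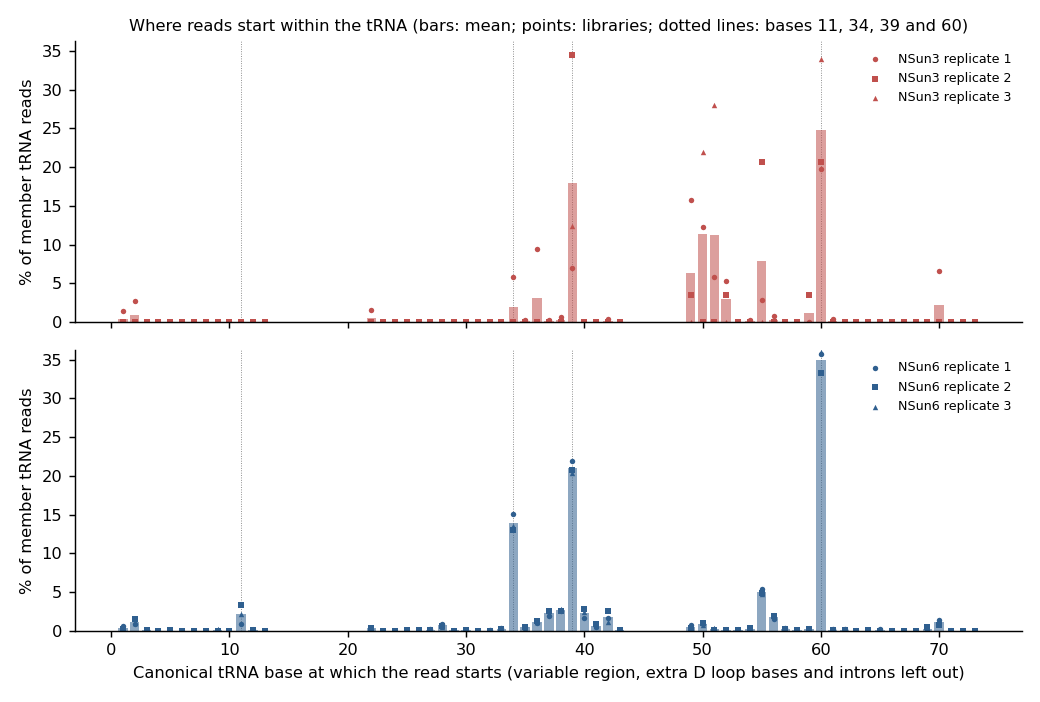
Share of the tRNA reads of a library (vertical axis, %) that start at each canonical tRNA base (horizontal axis), NSun3 above and NSun6 below. Bars are means of 3 libraries and points are libraries. NSun6 reads start mainly at bases 34, 39 and 60, and NSun3 reads at bases 39, 49 to 52 and 60 with a wide spread.

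By arm, the anticodon arm took 23.8%, 34.5% and 12.4% of the NSun3 and 48.8%, 48.4% and 45.9% of the NSun6 reads, and the T arm took 63.1%, 51.7% and 83.9% of the NSun3 and 45.6%, 42.9% and 45.8% of the NSun6 reads. The groups did not overlap in either arm (means 23.5% ± 11.1 and 47.7% ± 1.54, and 66.3% ± 16.3 and 44.7% ± 1.64, two-sided exact permutation test, p = 0.1 each, the smallest possible, and 0.3 after adjustment over 6 arms). With a library left out, the difference, NSun3 minus NSun6, was −29.6 to −18.6 percentage points in the anticodon arm. In the T arm it was 12.7 to 28.8, lowest without NSun3 replicate 3. Of the placeable bases, 19.4% lie in the anticodon arm and 36.4% in the T arm. The D arm, with 12.6% of placeable bases, took 0.533% ± 0.923 of NSun3 and 2.69% ± 1.38 of NSun6 reads, and the 3′ side of the acceptor stem, with 17.1%, took 2.20% ± 3.82 and 1.52% ± 0.256. NSun2 is known to act in the variable region and at bases 49 and 50, which are counted here in the T arm. The variable region took 6.07% ± 6.85 in NSun3 and 1.74% ± 0.475 in NSun6 on 9.69% of placeable bases, and the groups overlapped, with an NSun3 mean of 2.21% without replicate 2. At positions with at least 10 reads the order turned, to 0.226% in NSun3 and 1.47% in NSun6, and the groups did not overlap (exact permutation test, p = 0.1, the smallest possible). All NSun3 reads of the D arm and of the 3′ side of the acceptor stem came from replicate 1.

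**Figure D5:**
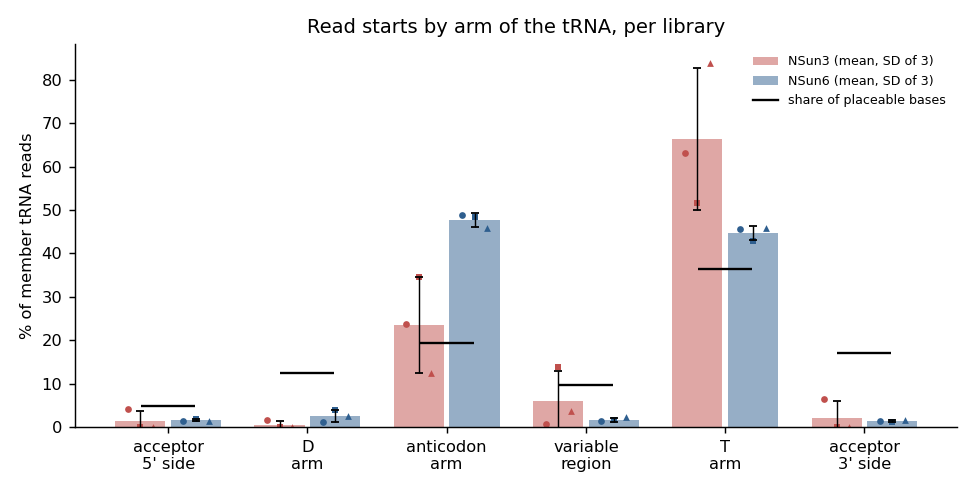
Share of the tRNA reads of a library (vertical axis, %) that start in each arm of the tRNA. Bars are means and error bars SD of 3 libraries, points are libraries, and black lines give the share of placeable bases in the arm. NSun6 lies above NSun3 in the anticodon arm and below it in the T arm.

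The 5′ side of the T stem held a larger share of NSun3 reads, but mostly at different positions in replicates 1 and 3. Bases 49 to 52 comprised 55 positions in 37 genes and took 39%, 6.90% and 50% of the NSun3 tRNA reads and 1.72%, 1.55% and 1.86% of those of NSun6. The means were 32% ± 22.4 and 1.71% ± 0.157 (SD, n = 3), and every NSun3 library lay above every NSun6 library (two-sided exact permutation test, p = 0.1, the smallest possible). In reads this was 366, 2 and 109 against 121, 121 and 103, so the 2 reads of NSun3 replicate 2 carry little weight. Most reads of NSun3 replicate 3 lay at base 51 of tRNA-Ser(AGA) gene 32, with 56, and base 50 of tRNA-Glu(CTC) gene 35, with 42. The other NSun3 libraries had 0 reads at both. These 4 bases, which hold the known NSun2 sites 49 and 50, were chosen after the profile was seen. The test on the same reads therefore only describes that profile. At gene 1, base 51 had 52, 0 and 4 NSun3 reads and 0, 1 and 6 NSun6 reads, and at tRNA-Ala(AGC) gene 8, base 50 had 44, 0 and 0 against 22, 15 and 16. Of the 25 positions without any NSun6 read, 12 lay in these bases, 5 lay in the leaders of initiator copies, and 21 were seen in 1 library only.

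Many starts lie so near the end of the gene that a read of 18 nt must pass it. From base 60, 14 nt of the gene remain, and with the 3 nt of CCA this makes 17 nt, below the shortest read of 18 nt that was kept. Positions for which the gene end with CCA is under 18 nt away numbered 76 in 64 genes, with 27.1% ± 6.64 of the NSun3 and 36.9% ± 1.78 of the NSun6 tRNA reads (SD, n = 3). Those at which a read becomes unique only with bases of the genomic 3′ flank numbered 170 in 74 genes, with 61.7%, 37.9% and 83.9% of the NSun3 and 45.7%, 43.0% and 46.0% of the NSun6 tRNA reads. Reads placed there hold genomic trailer bases or were matched to them within the 1 mismatch that the alignment allowed. The trailers of tRNA-Leu(CAA) genes 1 and 2 differ from CCA at 2 and 1 of their first 3 bases, and those of Arg gene 3 and Thr gene 4 at 3. Placement of reads to a single copy was not checked further, and the read sequences were not used here.

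Leaders and trailers gave few reads. Positions in leaders had 112, 0 and 34 reads in NSun3, 10.6%, 0% and 13.4% of the reads at all 447 positions, and 48, 45 and 31 reads in NSun6, 0.667%, 0.567% and 0.547%. Trailers had 0 reads in NSun3 and 57, 22 and 32 in NSun6. All NSun3 leader reads lay before initiator tRNA-Met genes, at 6 positions of 5 copies, where NSun6 had 0, 1 and 0 reads. The initiator copies themselves are not described here, and these positions remain because they lie just outside them. The leading examples, with the first base of the read in capitals and 10 nt before it, are these.
chr6:26330603, minus strand: ctgtgactcgCgtagcagagtggcgcag
chr6:26286750, plus strand: gtgcctggcaGaacagcagagtggcgca
chr6:27300838, minus strand: tcagaaaccgCttagcagagtggcgcag
chr6:27745661, plus strand: cgtgttttccGttagcagagtggcgcag

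The first had 9, 0 and 30 NSun3 reads and 0 NSun6 reads. The second had 32, 0 and 0 NSun3 reads and 0, 1 and 0 NSun6 reads, the third 17, 0 and 3 and no NSun6 read, and the last 18, 0 and 1 and no NSun6 read. After the start the sequences share agcagagtggcgca, the beginning of the initiator tRNA, while the bases before it differ. At chr6:26330603 the NSun3 values were 64.8, 0 and 634 RPM, a mean at least 27.4-fold above the mean value of 3 NSun6 reads, and the position was not tested because of its low counts. NSun6 leader reads lay mainly before tRNA-Leu(CAA) gene 1, at 28864110 (19, 10 and 0 reads) and 28864109 (3, 5 and 11), and before tRNA-Ala(AGC) gene 8, at 28779923 (7, 4 and 6). The leading trailer position, 28770551 behind a tRNA-Ala(TGC) gene, had 34, 5 and 16 NSun6 reads and 0 in NSun3.

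The 40 positions outside the recognised tRNA genes and their flanks were weak. They held 4, 2 and 2 NSun3 reads and 72, 55 and 68 NSun6 reads, and none exceeded 21 reads. An exact stretch of at least 18 nt through the start was shared with a recognised tRNA gene at 5 of them, so these lie in tRNA sequence that the cloverleaf search had not taken: 3 in a tRNA-Ser(GCT) copy, 1 in tRNA-Leu(AAG) sequence and 1 in tRNA-Val(CAC) sequence. They held 3, 1 and 0 NSun3 reads and 14, 10 and 12 NSun6 reads, and at the other 35 positions the shared stretch was 12 nt at most and no position exceeded 12 reads. Of the 40, 5 lay in exons and 7 in introns of annotated genes and 28 in neither. The strongest, chr6:26305736 on the minus strand in the tRNA-Ser(GCT) copy, of which 75 nt match a recognised gene, had 3, 0 and 0 NSun3 reads and 3, 5 and 10 NSun6 reads.
chr6:26305736, minus strand: acgcgtgggtTcgaatcccatcctcgtc

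The deposited positions are the read starts, of which 105 of 447 lie on a cytosine. In the methods a methylation site is inferred as the closest cytosine around the start, and the same reach of 2 nt was used here. Of the 447 positions, 375 had a cytosine within 2 nt, and these took 84.5%, 80.6% and 98.4% of the reads in NSun3 and 92.6%, 91.4% and 92.9% in NSun6 (87.9% ± 9.35 and 92.3% ± 0.767, two-sided exact permutation test, p = 0.400). Among all bases of the tRNA genes of the segment, 76.0% have a cytosine that near. The largest share of NSun6 reads, 55.3% ± 1.25, had it 1 nt downstream, as at base 60, and 21.7% ± 0.984 started on it. At positions elsewhere in the nuclear genome the share was 79.0% ± 2.28 in NSun3 and 93.0% ± 0.489 in NSun6.

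The letters CTCCA, searched on the strand of the read, stood at the nearest cytosine of 13 positions with 406 reads. In the tRNA genes of the segment, 38 of 2610 cytosines (1.46%) begin these letters. Of the 13 positions, 5 lay in 3 tRNA-Ala genes at bases 69 and 70, in the acceptor stem, and their 357 reads were 2.20% ± 3.82 of the NSun3 and 1.47% ± 0.206 of the NSun6 tRNA reads (SD, n = 3), the NSun3 share coming from replicate 1 alone. The first of them, chr6:28770580 on the minus strand, had 62, 0 and 0 NSun3 reads and 54, 15 and 31 NSun6 reads, and chr6:28641616 had 0 NSun3 reads and 45, 45 and 40 NSun6 reads. The rest of the 13 lay outside the recognised tRNA genes and their flanks, with NSun6 reads only and at most 12 reads each. How often the letters occur outside tRNA genes was not computed.

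Other isotypes known as substrates of cytosine methyltransferases were thinly covered. Elongator tRNA-Met has 6 genes in the segment, of which 3 had reads and 1 was tested and called lower in NSun3. tRNA-Val, a known NSun2 substrate, has 8 genes, 5 with reads and 1 tested, which was not called. tRNA-Asp, with 3 genes, and tRNA-Gly, with 1 gene, had 26 and 31 reads in all and no gene that could be tested. tRNA-Thr has 9 genes, 7 with reads, of which 6 were tested and 5 called lower in NSun3, a share close to the 83.1% of all genes tested.

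The bisulfite data covered these genes too thinly for a methylation level. Poly(A) selection removes most tRNA, and 113 of the 1819 cytosines of the 93 genes had a read, none of them methylated. At 2 cytosines of 1 gene, tRNA-Leu(AAG) at 28956779, more than 5 reads were listed, 0 of 7 methylated at each, which allows a level of up to 41% (95% exact binomial interval). Of 280 cytosines nearest to a start, 10 had a read and the highest coverage was 3.

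The profile of the segment was set beside that of 163 tRNA genes elsewhere in the nuclear genome, at 725 positions with at least 3 reads inside them. The T arm took a larger share here in 6 of 6 libraries, with means of 44.7% against 7.89% in NSun6 and 66.3% against 38.3% in NSun3 (exact sign-flip permutation test over the 6 libraries, p = 0.0312, the smallest possible). The anticodon arm took a smaller share here in 6 of 6 libraries, 47.7% against 86.5% in NSun6 and 23.5% against 55.6% in NSun3 (exact sign-flip permutation test, p = 0.0312). A single gene elsewhere, tRNA-Arg(TCG) at chr15:89878304, held 59.0% of the reads there, and without it both differences held in 6 of 6 libraries, at 44.7% against 19.5% and 47.7% against 67.0% in NSun6 and 66.3% against 55.7% and 23.5% against 35.4% in NSun3. Base 60 was higher here in 6 of 6 libraries (35% against 4.38% in NSun6 and 24.8% against 20.5% in NSun3, exact sign-flip permutation test, p = 0.0312). Without that gene it was higher in 4 of 6 (exact sign-flip permutation test, p = 0.219). The enzymes then went opposite ways on average, with 35% against 11% in NSun6 and 24.8% against 29.6% in NSun3. Base 39 was lower here in 6 of 6 libraries (difference −8.98 percentage points on average, exact sign-flip permutation test, p = 0.0312), but without that gene it was higher in 5 of 6 (difference 6.05 points, p = 0.0625). Base 34 was lower here in 6 of 6 libraries (difference −4.31 points, exact sign-flip permutation test, p = 0.0312), and without that gene it was higher in 0 of 6 (difference −8.86 points, p = 0.0625). In all, 10 comparisons were made on the same libraries, 5 with and 5 without that gene, and p = 0.0312 became 0.0446 after Benjamini-Hochberg adjustment of these exact permutation tests over the 10. Each of these tests pools the libraries of both enzymes and measures their spread over fixed sets of genes only. How many bases elsewhere could be placed was not computed. The leading genes of the segment were not left out in turn. The 4 tRNA-Leu(CAA) genes held 36.8% of its tRNA reads and 85% of those at base 60. Whether any of these differences holds without them was not tested.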

How the data were processed

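The series holds 8 samples: 3 NSun3 and 3 NSun6 miCLIP libraries of HEK293 cells and 2 bisulfite samples. According to the methods, the authors removed duplicate barcodes, kept reads of at least 18 nt and aligned them to hg19 with Bowtie, with 1 mismatch and a single best place allowed, and deposited counts of reads per truncation position. The bisulfite reads were aligned with Bismark, and the authors deposited methylated and unmethylated read counts and the percent methylated, in a table that does not separate the 2 samples. Tool versions are not given in the sources used here. The files have no strand column, and the first pass over the chromosomes was taken as the plus strand and the second as the minus strand.

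tRNA genes were found in the GRCh37 sequence by a cloverleaf search (at most 4 unpaired stem positions, an intron of at most 60 nt allowed) and named by anticodon, with numbering from the fold. The search found 7 of the 8 initiator copies, so numbers of genes are those it found and can be too low. A base was called placeable when a stretch of at most 30 nt from it matches the genome exactly at 1 place. Protein-coding exons came from the GENCODE annotation (release 44, lifted to GRCh37). Counts per gene and strand and per position were tested over the whole genome with edgeR 4.0.16 in R 4.3.3 (quasi-likelihood, TMM, filterByExpr, Benjamini-Hochberg, threshold 0.05), after a check on simulated data, and DESeq2 1.42.0 was an alternative. Shares were compared by exact permutation over libraries. A value of 3 reads served as floor.

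Genes named are the 12 with most reads and any further one among the 5 with the highest mean RPM in either enzyme. Positions named are the 6 highest in each enzyme and the 5 leading ones outside tRNA genes. Other positions and genes were picked after their values were seen, and all members and lists were chosen with earlier results of these data known.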

Additional observations from a re-analysis of the deposited data

How the results depend on the processing

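All differences here are NSun3 minus NSun6. Of the 93 tRNA genes, 10 were called, and the count was 22 with RLE scaling, 41 without a filter on low counts, 20 with DESeq2 (each holding the same 10, with the number tested 28, 93 and 93 and 95.3%, 26.8% and 19.1% of all genes called) and 8 to 31 when a library was left out, the highest without NSun3 replicate 1 (79.3% of all genes called) and the lowest without NSun6 replicate 1 or 2 (85.8% and 85.9%). Of the 447 positions, 36 were called, and the count was 78 without a filter (58 lower and 20 higher, where 3.74% of all positions were called) and 24 to 57 when a library was left out, the highest again without NSun3 replicate 1 (89.8% of all positions called) and the lowest without NSun6 replicate 1 (80.1%). The cause was not tested. The share of reads changed sign in 3 arms, in all of which the groups overlapped as reported. In the variable region it was −1.25 percentage points for positions with at least 10 reads, without overlap. In the 3′ side of the acceptor stem it was −1.76 with each position counted once, without overlap, and −1.52 to 1.78 when a library was left out. In the 5′ side it was −1.61 to 0.473 when a library was left out.

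Uncalled differences of named genes also changed sign. tRNA-Ala(AGC) gene 8 had 0.13 and tRNA-Val(TAC) gene 11 had 0.32 without mtDNA, and gene 11 had −9.09 to 0.18 when a library was left out. tRNA-Leu(CAA) gene 12 had −1.81 with RLE scaling, −1.09 without a filter, −1.24 with DESeq2, −3.65 with the replicate block and −8.82 to 0.88 when a library was left out. The position 27570361 had −0.29 to 1.94 when a library was left out, and 28763775, in a tRNA-Ala(AGC) gene and 2.05 as reported, had −0.36 without a filter and −1.35 to 0.88 when a library was left out.

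Same-numbered libraries correlated weakly in their deviations, at 0.0493, 0.0589 and 0.0288, though each was highest with its own number. Whether same-numbered libraries shared a batch was not tested. With the replicate block 8 genes (28.6% of those tested, against 70.9% of all genes) and 30 positions (68.2%, against 78.6%) were called, and tRNA-Thr(TGT) gene 5 and the tRNA-Gln(TTG) gene at 28557156 lost their calls (edgeR adjusted p = 0.0646 and 0.209), while no other gene named with its values and no named position changed its call. The depth of the NSun3 libraries, above all replicates 2 and 3, limits every comparison, since 3 reads equal 47.2 RPM there on average and 8.5 RPM in NSun6.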
